A study of Homo sapiens with 4 samples.

Results

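Poly(A) RNA of HEK293T cells transfected with a vector for SF3B1-R625H was compared with that of HEK293T cells transfected with a vector for SF3B1-K666T. HEK293T is a human embryonic kidney line that carries the SV40 large T antigen. The comparison used 2 of the 4 libraries of the series and had 1 library a side, chosen by vector and by plasmid amount: both cultures received 1000 ng of plasmid, per the labels. The other libraries, SF3B1-K700E with 2000 ng and wild-type SF3B1 (WT, for which the labels state no amount), are set beside the values as points of reference. All 4 cultures were transfected with the same lipid reagent. The cells keep their own SF3B1 gene, and no label states the share of cells that took up a vector. A difference between the libraries has no replicate check, and a difference between vectors cannot be told apart from a difference between cultures or library preparations.

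SF3B1 is the largest subunit of SF3b, the part of the U2 snRNP that holds the branch point of the intron while the acceptor (3′ splice site) downstream of it is chosen. Cancer-associated substitutions cluster in its HEAT repeats. Mutant proteins are known for using cryptic acceptors a short way upstream of the normal one, so that a few intron bases stay in the mRNA. A distance that is a multiple of 3 adds codons, and any other distance shifts the reading frame when the exon is coding.

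The substitutions lie in neighbouring stretches of the SF3B1 coding sequence, shown to place the residues that the compared vectors alter. The reference sequence is that of the GENCODE release 29 transcript ENST00000335508.10 on the minus strand of chromosome 2, with 25 exons and 1304 codons, and capitals mark the reference codon that is replaced. R625H replaces an arginine codon of exon 14, K666T a lysine codon of the same exon, and K700E a lysine codon of exon 15.
R625H: gatgagtatgtcCGTaacacaacagct
K666T: cacactggtattAAGattgtacaacag
K700E: gatgagcagcagAAAgttcggaccatc

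The next sequences belong to 9 of the acceptor pairs called below, out of those whose intron bases an annotated transcript holds, and are shown so that the retained bases can be read. Capitals mark the bases between the upstream and the downstream acceptor, which are kept when the upstream acceptor is used. The 20 bases before them end at the upstream acceptor, and the 8 bases after them open the normal exon. The letters come from GENCODE release 29 transcripts (GRCh38), and the positions given with the values are hg19. The first 6 had a higher upstream share in R625H, and the last 3 a lower one.
GAS8: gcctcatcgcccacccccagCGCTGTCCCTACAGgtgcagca
RHNO1: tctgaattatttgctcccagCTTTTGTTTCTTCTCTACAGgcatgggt
WNT10B: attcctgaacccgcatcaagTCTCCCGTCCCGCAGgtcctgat
SLC38A9: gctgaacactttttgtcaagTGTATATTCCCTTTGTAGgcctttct
DHX29: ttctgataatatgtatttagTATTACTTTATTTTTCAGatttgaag
MTF2: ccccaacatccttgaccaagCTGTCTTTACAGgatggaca
CCT5: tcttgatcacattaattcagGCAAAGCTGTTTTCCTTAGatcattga
CCNG1: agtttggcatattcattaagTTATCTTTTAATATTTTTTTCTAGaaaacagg
CEP170: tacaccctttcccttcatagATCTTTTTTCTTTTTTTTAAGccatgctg

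Reads assigned to genes numbered 82254731 in R625H and 86394759 in K666T, with 83025588 in K700E and 90939945 in WT. Uniquely mapped reads over junctions with a known splice motif came to 65939159 in R625H and 68585811 in K666T. Junctions listed in both files carried 99.07% of these reads in R625H and 99.06% in K666T. Unmapped pairs made up 16.46% in R625H and 17.31% in K666T, against 8.84% in WT. Of the 6 HEK293T markers looked for, 5 were found and read in both libraries, with a summed level of 1235 CPM (a gene's reads scaled to the same total of gene reads in every library) in R625H and 1201 CPM in K666T. Of 15 markers of other cell types, 4 reached 1 CPM, and the whole list summed to 38.6 CPM in R625H and 39.5 CPM in K666T. SF3B1 itself had 517.3 CPM in R625H and 520.9 CPM in K666T (log2 ratio -0.01). Reads of the vectors were not told apart from reads of the cells' own gene, so the level does not check the labels.

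The main question of the comparison was at which acceptors the libraries differ. An acceptor pair here is 2 acceptors 10 to 30 nt apart that share a donor, and its upstream share is the percentage of the pair's reads on the upstream acceptor. Over the 13040 pairs with an annotated downstream acceptor and at least 50% of the donor's reads in both libraries, the upstream share was higher in R625H at 19 pairs (0.146%) and lower at 5 (0.0383%). A call needed an adjusted p under 0.05 (two-sided Fisher's exact test on the reads, Benjamini-Hochberg) and at least 10 percentage points, and such a test compares 2 libraries, not 2 conditions. Adjusting over all 23372 pairs gave smaller adjusted p-values by Fisher's exact test, such as 0.0087 at TMEM134 against 0.0483 within the set. The 24 pairs were therefore bound to be called under it too, which is no second check. Under that adjustment 33 pairs (0.253%) were higher and 9 (0.069%) lower in the same set. The set was chosen after seeing the data. Intervals below are 95% and, like the limits given for shares of 0, cover counting error only.

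**Figure D1:**
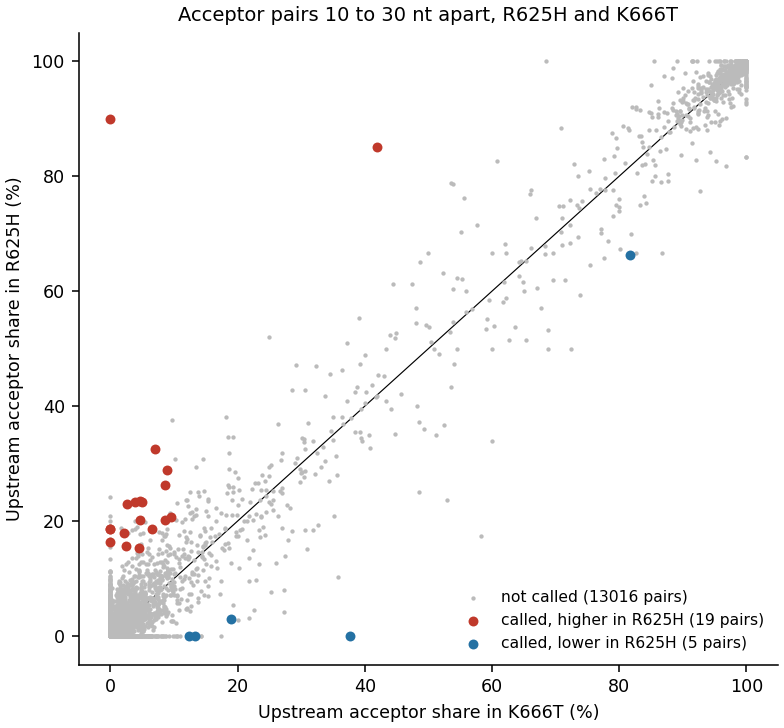
Upstream acceptor share of 13040 acceptor pairs in R625H (vertical axis, %) against K666T (horizontal axis, %), 1 point a pair, 1 library a side, with the line of equal shares. The 19 called pairs above the line have shares up to 89.9% in R625H, and the 5 called pairs below it include 3 at 0% in R625H.

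The calls higher in R625H at RHNO1, C1D and GAS8 had reads on each acceptor in every library. At RHNO1, which binds the 9-1-1 clamp in the replication checkpoint, the acceptor at chromosome 12 position 2994428, 20 nt upstream, took 23.5% of 597 reads in R625H (20.2 to 27.02) and 4.72% of 635 reads in K666T, with 7.05% in K700E and 1.08% in WT. At C1D, a cofactor of the nuclear RNA exosome (chromosome 2, 68274469, 17 nt), it took 23.4% of 603 reads in R625H and 4.90% of 551 reads in K666T, with 7.25% in K700E and 0.973% in WT. At both genes R625H stood above the other 3 libraries, and K666T and K700E lay close to each other. At GAS8, a subunit of the nexin-dynein complex of motile cilia (chromosome 16, 90106693, 14 nt), the share was 32.5% of 117 reads in R625H and 7.02% of 171 reads in K666T, with 4.60% in K700E and 3.85% in WT. The difference at GAS8 was 25.5 points (16.3 to 34.9), and the K666T and K700E shares lay within each other's counting intervals and that of WT.

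R625H was also the highest at CCNYL1, which encodes a relative of cyclin Y (chromosome 2, 208611755, 15 nt). It had 22.9% in R625H and 2.59% in K666T, with 3.76% in K700E and 0.939% in WT. APPL2, an adaptor protein of early endosomes (chromosome 12, 105601826, 18 nt), had 28.8% in R625H and 8.82% in K666T, with 12.03% in K700E and 2.06% in WT. COPS2, a subunit of the COP9 signalosome (chromosome 15, 49420971, 13 nt), was the best covered of the 19, with 112 of 732 reads upstream in R625H (15.3%) and 37 of 813 in K666T (4.55%), and it had 2.34% in K700E and 0.418% in WT. In these 3 genes no other library came within 10 points of R625H. 

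At other called genes K700E was nearer to R625H than to K666T. DHX29, a helicase of translation initiation (chromosome 5, 54566334, 18 nt), had 18.7% in R625H and 6.53% in K666T, with 13.9% in K700E and 2.80% in WT. The long non-coding RNA TMCC1-AS1 (chromosome 3, 129624446, 23 nt) had 26.2% in R625H and 8.55% in K666T, with 18.9% in K700E and 3.12% in WT. ZNF410, a zinc finger transcription factor (chromosome 14, 74360478, 21 nt), had 20.2% in R625H and 8.57% in K666T, with 15.4% in K700E and 1.81% in WT; its reads overlap another gene and are uncertain. Over the 19 pairs K700E was above K666T at 15 and nearer to K666T than to R625H at 14. Both counts use the R625H and K666T shares by which the 19 were picked. Over the whole set of 13040 pairs, K700E was above K666T at 4909 and nearer to K666T than to R625H at 5581.

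Another group of called pairs had no read on the upstream acceptor in WT. WNT10B, a Wnt ligand (chromosome 12, 49364368, 15 nt), had 18 of 77 reads in R625H (23.4%) and 3 of 78 in K666T (3.85%), with 5.13% in K700E and 0 of 107 in WT, which allows up to 2.80%. HIP1R, which links clathrin coats to actin (chromosome 12, 123340362, 15 nt), had 17.9% in R625H and 2.18% in K666T, with 2.97% in K700E. STK17B, a kinase of the DAPK family (chromosome 2, 197004545, 21 nt), had 15.6% in R625H and 2.44% in K666T, with 3.57% in K700E. In each of these 3 genes R625H was at least 10 points above every other library, from pairs of 77 to 236 reads.

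TRIM37, an E3 ubiquitin ligase (chromosome 17, 57148330, 21 nt), had 20.6% in R625H and 9.45% in K666T, with 9.62% in K700E and 0 of 340 reads in WT, which allows up to 0.882%. The transcribed pseudogene AFG3L1P (chromosome 16, 90046628, 21 nt) had 20.2% in R625H and 4.69% in K666T, with 0.741% in K700E. The zinc finger gene ZNF548 (chromosome 19, 57909780, 17 nt) had 57 of 67 reads in R625H (85.1%) and 18 of 43 in K666T (41.9%), with 55.9% in K700E and 0 of 9 in WT, which allows up to 33.3%. At ZNF548 the upstream acceptor was the major one in R625H and K700E, and the WT value rests on few reads.

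At 4 of the 19 pairs the upstream acceptor had no read in K666T. SLC38A9, the arginine sensor of the lysosome (chromosome 5, 54968542, 18 nt), had 28 of 171 reads in R625H (16.4%) and 0 of 213 in K666T, which allows up to 1.41%, with 2.23% in K700E. MTF2, an accessory subunit of Polycomb repressive complex PRC2 (chromosome 1, 93575871, 12 nt), had 18.6% (12.3 to 27.3) in R625H and 0 of 76 reads in K666T, which allows up to 3.95%, with 11.97% in K700E and 0 of 65 in WT. In these genes the libraries with upstream reads were R625H and K700E. SRP9, a protein of the signal recognition particle (chromosome 1, 225976912, 29 nt), had 14 of 75 reads in R625H and 0 of 73 in K666T, 0 of 61 in K700E and 8 of 37 in WT. SRP9 did not follow the mutants, since WT (21.6%) lay with R625H. HNRNPA3 (chromosome 2, 178081605, 30 nt) had 160 of 178 reads in R625H and 0 of 78 in K666T, with 140 of 140 in K700E and none on either acceptor in WT; the gene has near-identical copies and the site lies in repetitive glycine codons, so this pair is uncertain.

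**Figure D2:**
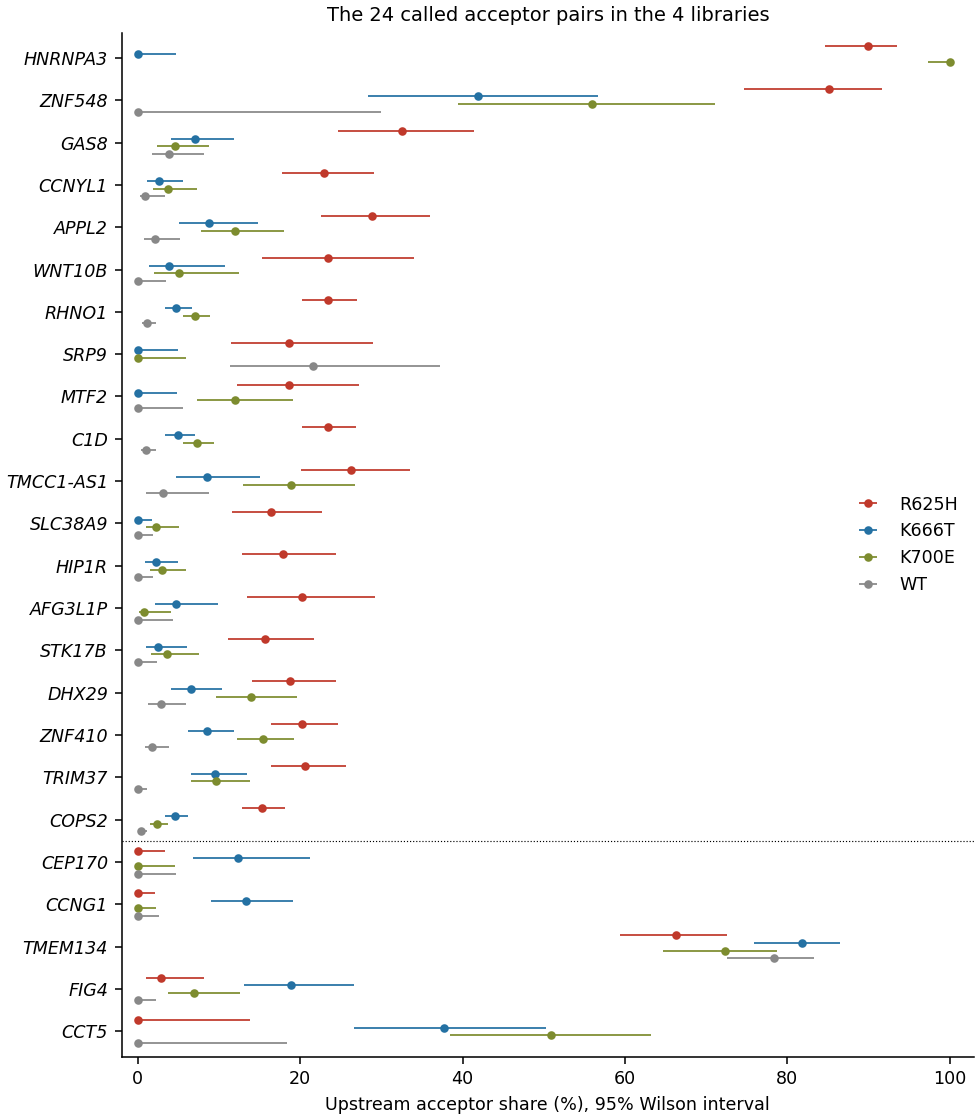
Upstream acceptor share (%, horizontal axis) of the 24 called pairs, named by gene, in R625H, K666T, K700E and WT, with 95% Wilson intervals, 1 library each; above the dotted line are the 19 pairs higher in R625H. R625H is the highest of the 4 libraries at all of these but HNRNPA3 and SRP9, with a median share of 20.6%, against 4.69% in K666T. The 19 pairs were called for a higher share in R625H than in K666T, so the order of these 2 libraries follows from the choice.

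The 5 pairs lower in R625H were of mixed kinds. CCT5, a subunit of the cytosolic chaperonin (chromosome 5, 10262573, 19 nt), had 0 of 24 reads in R625H, which allows up to 12.5%, and 23 of 61 in K666T (37.7%), with 50.8% in K700E and 0 of 17 in WT. FIG4, a phosphoinositide phosphatase (chromosome 6, 110086201, 14 nt), had 2.88% of 104 reads in R625H and 18.9% of 127 in K666T, with 6.92% in K700E and 0 of 171 in WT. Cyclin G1, CCNG1 (chromosome 5, 162871318, 24 nt), had 0 of 183 reads in R625H, which allows up to 1.64%, and 23 of 173 in K666T (13.3%), with 0 of 165 in K700E and 0 of 142 in WT. CCNG1 was thus read upstream in K666T alone of the 4 libraries.

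The centrosomal protein gene CEP170 (chromosome 1, 243289458, 21 nt) was also read upstream in K666T alone. It had 0 of 109 reads in R625H, which allows up to 2.75%, and 10 of 81 in K666T (12.3%). K700E had 0 of 81 and WT 0 of 77. TMEM134 (chromosome 11, 67235062, 27 nt) used an annotated upstream acceptor in all libraries, at 66.3% of 193 reads in R625H and 81.8% of 203 in K666T, with 72.3% in K700E and 78.4% in WT. At TMEM134 R625H was the lowest of the libraries and K666T the highest. The pairs next to the limit of 10 points were COPS2 and TRIM37 inside it, at 10.7 and 11.2 points, and FASTKD1 and DGCR2 outside it, at 9.98 and 9.87 points.

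The 19 pairs higher in R625H had distances of 12 to 30 nt with a median of 18 nt, and 12 of them (63.2%) were multiples of 3, against 39.4% of the 13040 pairs. The upstream acceptor was not in GENCODE release 29 at 15 of the 19 (78.9%) and at 87.8% of the whole set. Median shares over the 19 were 20.6% in R625H, 4.69% in K666T, 7.05% in K700E and 0.679% in WT. These 19 were picked for the first difference, so only their K700E and WT values are free of that choice. Where an annotated transcript gave the bases between the acceptors, as for those printed above, C and T made up a median of 77.5% of them at 12 pairs higher in R625H, 73.3% at 4 lower ones and 75% at the 3992 pairs of the set with a sequence.

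Genes known for cryptic acceptors in SF3B1-mutant cells had called and uncalled pairs. The list, chosen with earlier results of these data known, gave 74 pairs in 31 genes of the set: 42 were higher in R625H, 23 lower and 9 equal, the median difference was 0.16 points, and 2, GAS8 and ZNF548, were called higher, where 0.146% of the set was. Over the whole set 45.5% of pairs were higher in R625H and the median was 0. The heme-pathway gene TMEM14C had 35.7% of 2322 reads in R625H and 34.7% of 2432 in K666T, a difference of 1.08 points (-1.63 to 3.80). SERBP1, an mRNA-binding protein, had 67.4% in R625H and 66.2% in K666T (1.24 points, 0.0049 to 2.47) at its annotated pair. A minor SERBP1 pair outside the set (chromosome 1, 67891987, 25 nt, neither acceptor annotated) was called, with 81 of 81 reads in R625H and 33 of 438 in K666T, and held 1.15% of the donor's reads in R625H and 5.58% in K666T. The other 405 reads of this pair in K666T lay on its downstream acceptor. Against the annotated acceptor, 18 nt downstream, the same upstream acceptor had 81 of 7036 reads in R625H (1.15%) and 33 of 7431 in K666T (0.444%). That difference was 0.71 points and was not called. DPH5, of diphthamide synthesis, had 18.9% in R625H and 18.1% in K666T (0.80 points, -4.59 to 6.31). The intervals at TMEM14C, DPH5 and the annotated SERBP1 pair end below 10 points.

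Smaller differences with R625H higher were seen in well-covered genes of the list. The dynein light chain gene DYNLL1 had 31.8% of 7584 reads in R625H and 26.96% of 8139 in K666T, 4.81 points apart (3.38 to 6.23), with 22.1% in K700E and 7.60% in WT. DLST, of the oxoglutarate dehydrogenase complex, had 26.2% in R625H and 18.5% in K666T, 7.69 points apart (3.89 to 11.5). MED6, a Mediator subunit, had 17.5% in R625H and 8.46% in K666T, 9.01 points apart (4.70 to 13.3). Each of the 3 passed the adjusted p limit by Fisher's exact test and missed the 10 points, so none was called.

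ENOSF1, a mitochondrial enolase relative, had 42.8% of 187 reads in R625H and 28.5% of 172 in K666T, 14.3 points apart (4.37 to 23.8), with an adjusted p of 0.26 by Fisher's exact test. At other listed genes the share was lower in R625H than in K666T. The non-coding RNA gene CRNDE had 18.3% of 311 reads in R625H and 28.5% of 316 in K666T (-10.2 points, -16.7 to -3.53), with an adjusted p of 0.175 by Fisher's exact test within the set and 0.0435 over all pairs, where it was called lower. TTI1, a partner of PI3K-related kinases, had 64 of 237 reads in R625H and 82 of 239 in K666T (-7.31 points, -15.4 to 0.98), and the zinc finger gene ZNF561 had 57.1% in R625H and 67.7% in K666T (-10.5 points, -22.0 to 1.30). MAP3K7, the kinase TAK1, had 43 of 185 reads in R625H and 52 of 208 in K666T, and the calcium channel gene ORAI2 had 35.5% in R625H and 38.5% in K666T. At TTI1, ZNF561, MAP3K7 and ORAI2 the interval of the difference included 0. The ZNF561 share was 77.1% in K700E and 92% in WT. The CRNDE share was 23.0% in K700E and 30.5% of 59 reads in WT. At both genes R625H lay furthest from WT. At TTI1, MAP3K7 and ORAI2 the WT share was lower, at 4.33%, 9.06% and 2.5%, and K666T lay furthest from WT.

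A selection that used neither library gave a wider view. Pairs with an annotated downstream acceptor and at least 50% of the donor's reads, whose upstream share was at least 10 points higher in K700E than in WT (adjusted p under 0.05 by Fisher's exact test), numbered 79, and 78 of them had the 20 reads needed in both R625H and K666T. R625H was higher at 55 of the 78, lower at 22 and equal at 1, with a median difference of 3.97 points and quartiles of -1.72 and 9.68. Median shares were 21.4% in R625H, 16.04% in K666T, 18.3% in K700E and 1.51% in WT. The pairs were picked by their K700E and WT shares, so only the R625H and K666T medians are free of that choice. Over the 13040 pairs the medians were 0.184% in R625H and 0.0708% in K666T, so a difference of 10 points was within reach of fewer of them. The rates of calls are thus not like for like. With p-values adjusted over all 23372 pairs, 0.253% of the 13040 pairs were called higher and 0.069% lower. Among the 78, under the same adjustment, 8 were called higher in R625H and 1 lower. MTF2, TMCC1-AS1, DHX29 and ZNF410, given above, were among those called higher, with E2F7, TOR1AIP2 and HELLS; these 3, and the pair called lower, were not called when p-values were adjusted within the set of 13040.

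TOR1AIP2, an activator of torsin ATPases (chromosome 1, 179835005, 15 nt), had 70 of 280 reads in R625H (25%) and 42 of 304 in K666T (13.8%), with 16.1% in K700E and 1.51% in WT. HELLS, a chromatin remodeller of DNA methylation (chromosome 10, 96306117, 16 nt), had 24.4% in R625H and 13.9% in K666T, with 14.2% in K700E and 3% in WT. The cell-cycle repressor gene E2F7 (chromosome 12, 77449928, 17 nt) had 18.7% in R625H and 3.90% in K666T, with 15.4% in K700E. The 1 pair called lower was in WDR90, a centriolar protein gene (chromosome 16, 708509, 15 nt), with 6 of 79 reads in R625H (7.59%) and 27 of 107 in K666T (25.2%), 16.7% in K700E and 4.42% in WT. WDR90 thus had its highest share in K666T, whereas the pairs of E2F7, TOR1AIP2 and HELLS had theirs in R625H.

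**Figure D3:**
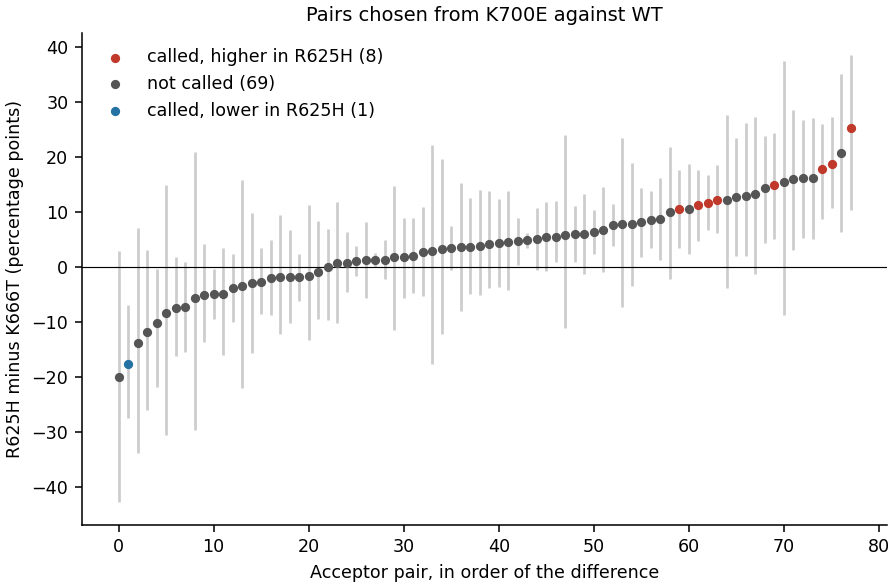
Difference in upstream share, R625H minus K666T (percentage points, vertical axis), of 78 acceptor pairs chosen from K700E against WT, in order of the difference, 1 library a side, with 95% counting intervals as grey bars. Of the points, 55 lie above 0, with a median of 3.97 points.

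Reads at unannotated upstream acceptors were summed over 11447 pairs of the set, few of which hold a visible share on their own. The pooled upstream share was 0.290% in R625H (0.287 to 0.293) and 0.214% in K666T (0.211 to 0.216), 1.36 times as high in R625H, with 0.218% in K700E and 0.115% in WT. At least 1 upstream read was found at 6322 of these pairs in R625H and 5541 in K666T, although R625H had fewer reads in all. The unweighted mean share was 1.14% in R625H and 0.871% in K666T. By distance, the pooled share was highest at 10 to 12 nt, at 1.37% in R625H and 1.06% in K666T, and lowest at 28 to 30 nt, at 0.126% in R625H and 0.111% in K666T. The ratio of R625H to K666T was above 1 in all 7 distance classes, from 1.13 at 28 to 30 nt to 1.49 at 19 to 21 nt.

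**Figure D4:**
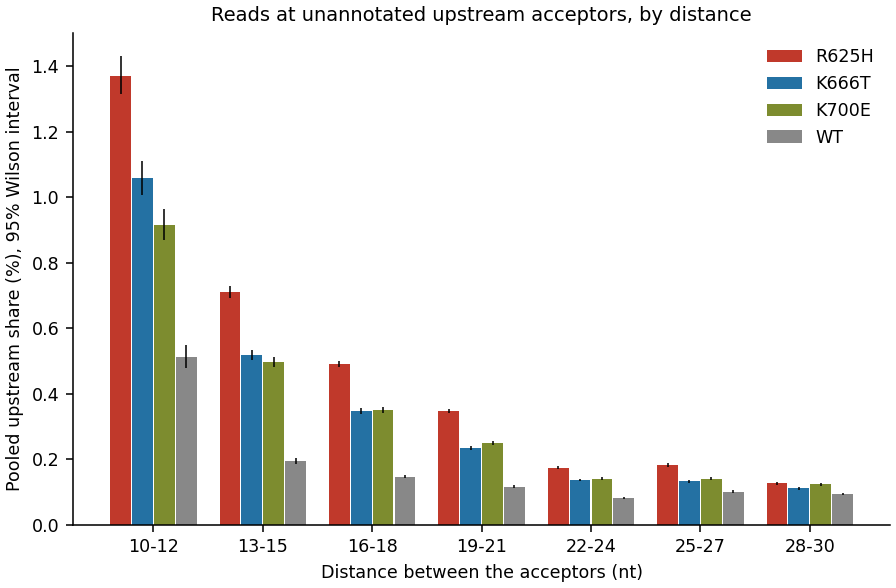
Pooled share of reads on unannotated upstream acceptors (%, vertical axis) by distance between the acceptors (nt), in R625H, K666T, K700E and WT, 1 library each, with 95% Wilson intervals. R625H has the highest bar in all 7 classes and WT the lowest; K700E is nearer to K666T than to R625H in every class but 28 to 30 nt, where it is nearer to R625H.

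Without the requirement of 50% of the donor's reads, 271 of 23372 pairs were called higher in R625H (1.16%) and 225 lower (0.963%). Of these 496 pairs, 423 had an acceptor with no read in one of the libraries and 293 held under 10% of their donor's reads. Of 4129 pairs with no acceptor unread in any of the 4 libraries, 25 were higher (0.605%) and 16 lower (0.388%). Some of these rest on rare junctions of abundant transcripts. PTMA, for prothymosin alpha, had 9.52% of 42 reads in R625H and 69.8% of 129 in K666T at a pair that held under 1% of the donor's reads. THOP1, a metallopeptidase, had 10.9% in R625H and 69.6% in K666T. TRIM28, a corepressor of KRAB zinc finger proteins, had pairs in both directions that share an acceptor. CANX, the chaperone calnexin, had 23.5% in R625H and 5.86% in K666T at a pair with 3.05% of its donor's reads in R625H.

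The other calls of this class were spread over both directions. Higher in R625H were an unnamed pair on chromosome 17 at 43226489 (82.6% in R625H and 11.1% in K666T, 73.2% in K700E), one on chromosome 12 at 111162528 (47.6% in R625H and 13.5% in K666T), and pairs of TMEM263, DDX41, PFDN5, PRR13 and NOC4L, which held 1.02 to 15.9% of their donors' reads. At TMEM263, DDX41, PRR13 and NOC4L, K700E and WT lay nearer to R625H than K666T did. Lower in R625H were JMY, an actin nucleation factor (22.9% in R625H and 64.7% in K666T), the clock gene ARNTL (4.60% in R625H and 22.6% in K666T), and TRIP12, a ubiquitin ligase (60.1% in R625H and 70.2% in K666T, 82.6% in WT). Others were CRNDE, given above, SPCS2, TBC1D10B, WASH7P and unnamed pairs at 152969541 of chromosome X and 34171843 of chromosome 17. WASH7P has near-identical copies and is uncertain.

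Pairs at other distances and pairs of donors served as a background. Over all such pairs, 1.26% were higher and 1.14% lower in R625H at acceptors 3 to 9 nt apart, 1.17% and 1.24% at acceptors 31 to 100 nt apart, and 0.484% and 0.471% at donors 10 to 30 nt apart. With no site unread in any library, these shares were 0.517% higher and 0.306% lower at 3 to 9 nt, 0.549% and 0.266% at 31 to 100 nt, and 0.0436% and 0.0871% at donors. The shares called at acceptors 10 to 30 nt apart were near those at the other acceptor distances under both rules, and above those at donors. With an annotated downstream site and 50% of the reads, 1 of 2164 acceptor pairs 3 to 9 nt apart was higher in R625H (0.0462%) and 3 lower (0.139%). At 31 to 100 nt, 5 of 13238 were higher (0.0378%) and 10 lower (0.0755%). Among donor pairs 10 to 30 nt apart, 6 of 3769 were higher (0.159%) and 11 lower (0.292%). Under this last rule the shares called at donors were above those at acceptors 10 to 30 nt apart (0.146% higher and 0.0383% lower) in both directions. More pairs were lower than higher in all 3 background classes, whereas at acceptors 10 to 30 nt apart 19 were higher and 5 lower. The differences between the classes were not tested.

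Inclusion of whole exons was called at few exons. Of 152903 cassette exons of 10 to 500 nt, inclusion was higher in R625H at 57 (0.0373%) and lower at 41 (0.0268%), and 74 of these 98 had a junction unread in one of the libraries. Of 38585 exons with every junction read in all 4 libraries, 3 were higher (0.00778%) and none lower (0.0%). USF2, a transcription factor that binds E-boxes, had an exon at chromosome 19 positions 35760706 to 35760906 included at 52.0% in R625H (47.4 to 56.5) and 39.1% in K666T (34.9 to 43.4), with 44.2% in K700E and 50.2% in WT. PLEKHM2, which ties lysosomes to kinesin, had an exon of 91 nt at chromosome 1 positions 16054762 to 16054852 included at 93.0% in R625H and 81.9% in K666T, with 89.5% in K700E and 91.2% in WT. At both exons K666T was the lowest library, and R625H lay within the counting interval of WT.

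The third was an exon of 230 nt in RHNO1 (chromosome 12, 2994429 to 2994658), at 68.97% in R625H and 39.02% in K666T, with 39.3% in K700E and 25% in WT. It starts at the upstream acceptor of the RHNO1 pair above, so exon and pair share reads and are 1 observation. Its upstream junction had 140 reads in R625H and 30 in K666T, but its downstream junction 20 in R625H and 34 in K666T, so the call rests on the acceptor and not on the whole exon. Of 27490 exons whose junctions were all read in both libraries and whose inclusion junctions were within 2-fold of each other, 2 were higher (0.00728%), PLEKHM2 and RACK1, and none lower (0.0%). In RACK1, a ribosomal scaffold protein, skipping of an exon of 40 nt had 78 reads in R625H and 777 in K666T, with 65 in K700E and 0 in WT.

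Gene levels were nearly the same in the libraries. Of 14615 genes with at least 1 CPM in either, 79.6% lay within 1.1-fold, the median log2 ratio of R625H over K666T was -0.02, and 95% of genes lay between -0.30 and 0.25. At least 2-fold differences numbered 5 genes higher in R625H (0.0342%) and 4 lower (0.0274%), and at least 1.5-fold differences 39 (0.267%) and 41 (0.281%). Log2 ratios use CPM with a prior count of 10 and have no test. The intervals beside them are those of the ratio without the prior count and cover counting error only. In bulk RNA, fewer cells with a transcript and less of it per cell cannot be told apart.

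The highest ratio was that of IL32, a cytokine, with 531 reads in R625H and 169 in K666T (log2 ratio 1.66, 1.47 to 1.98), and 175 in K700E and 154 in WT. TNFRSF9, the costimulatory receptor 4-1BB, had 418 reads in R625H and 179 in K666T (1.25), with 239 in K700E and 155 in WT. The matrix protein gene TNC was the most abundant of the 10 highest, with 34.1 CPM in R625H and 19.5 CPM in K666T (0.80), 29.1 CPM in K700E and 14.6 CPM in WT. IL32 was high in R625H alone, while TNC was near R625H in K700E too. ANO9 (1.01), LRG1 (1.07), LINC02945 (1.24), FRMD1 (0.88), CD44 (0.71) and ELSPBP1 (0.71) were among the other genes with high ratios, at 92 to 321 reads in R625H apart from LRG1 with 89. PTMAP5, RPL7P9 and RPL21P75 are pseudogenes with near-identical copies and are uncertain.

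At the low end, FGF21, a secreted metabolic hormone, had 139 reads in R625H and 297 in K666T (-0.98), with 278 in K700E and 52 in WT. INHBE, for the inhibin beta E subunit, had 11.4 CPM in R625H and 21.9 CPM in K666T (-0.93), with 20.2 CPM in K700E and 5.95 CPM in WT. In both genes R625H lay between WT and the other mutant libraries. The anion channel gene BEST1 had 3.89 CPM in R625H and 6.94 CPM in K666T (-0.82), with 2.30 CPM in WT. ERVK3-1 (-0.78), ROCK1P1 (-0.74), KIF25 (-0.72), RUSC1-AS1 (-0.70), HSD17B7P2 (-0.68) and TMEM254-AS1 (-0.68) completed the 10 lowest with RPS2P7 (-1.37), a pseudogene. The 2-fold genes ENSG00000213058, with 0.109 CPM in R625H and 7.71 CPM in K666T, and NPIPB11, with 23 reads in R625H and 91 in K666T, have near-identical copies and are uncertain; XCL1, a chemokine, had 35 reads in R625H and 87 in K666T.

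Interferon response genes were higher in R625H as a group. The list has 40 genes, of which 33 were tested, and each of these had a positive log2 ratio, with a median of 0.34 against -0.02 over all genes, and 4 were at least 1.5-fold higher, where 0.267% of all genes were. IFIT2, an RNA-binding antiviral protein, had 56.1 CPM in R625H and 34.8 CPM in K666T (0.69), with 404 CPM in K700E and 5.31 CPM in WT. RSAD2, the antiviral enzyme viperin, had 16.5 CPM in R625H and 10.6 CPM in K666T (0.64), with 184 CPM in K700E and 1.19 CPM in WT. IFIT3 (0.63) and MX2 (0.68), a nuclear pore restriction factor with 85 reads in R625H and 52 in K666T, were the others. The list was far higher in K700E, which had 2000 ng of plasmid, than in either 1000-ng library: its summed level was 1176 CPM in R625H, 908.9 CPM in K666T, 4848 CPM in K700E and 390.3 CPM in WT. The part of plasmid amount or uptake in the difference between R625H and K666T was not tested. IFNB1, the interferon gene itself, was under the filter at 67 reads in R625H and 57 in K666T.

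Targets of NF-kB, a transcription factor of inflammation, leaned the same way. Of 18 tested members 14 had a positive ratio (15 under TMM or median-of-ratios scaling), with a median of 0.21, and RELB, an NF-kB subunit, was at least 1.5-fold higher, with 13.7 CPM in R625H and 8.81 CPM in K666T (0.63). The inhibitor NFKBIA had 39.1 CPM in R625H and 27.5 CPM in K666T (0.51), and NFKB2 had 48.8 CPM in R625H and 34.6 CPM in K666T (0.49). For NFKBIA and NFKB2, K666T, K700E and WT lay within 22.5 to 38.6 CPM, below R625H at each gene. RELA, which is part of the same family, had a ratio of -0.01.

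The integrated stress response list leaned the other way, with 15 of 20 tested members below 0 (13 under the other scalings) and a median of -0.14. Over all genes 8652 of 14615 were below 0. Besides FGF21, NUPR1 had -0.33, and DDIT3 (CHOP, a stress transcription factor) and CTH, of cysteine synthesis, had -0.30 each, whereas GDF15 had 0.32 and ATF4, the master regulator, 0.11. None but FGF21 was 1.5-fold lower. The 13 mitochondrially encoded genes were all above 0 (median 0.17, MT-ND3 highest at 0.25), as were 59 of 60 cytosolic ribosomal protein genes (median 0.08), and none of them reached 1.5-fold.

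**Figure D5:**
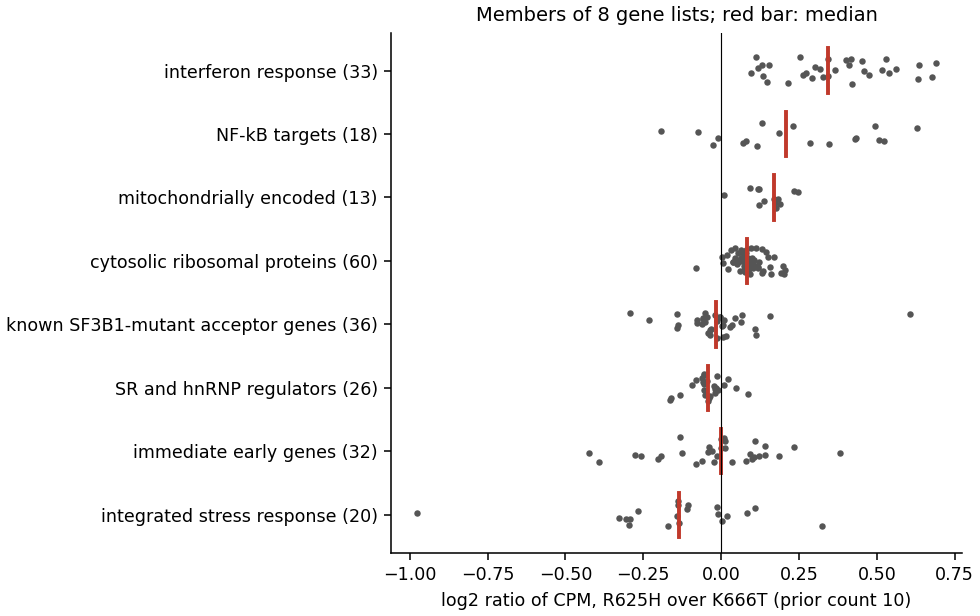
log2 ratio of CPM, R625H over K666T (horizontal axis, prior count 10), of the tested members of 8 gene lists, 1 point a gene, 1 library a side, with the list's median as a red bar. The interferon list lies wholly above 0 with a median of 0.34, and the stress list has a median of -0.14 with FGF21 at -0.98.

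Lists of the splicing machinery moved little. The 10 genes of SF3a and SF3b had ratios from -0.08 to 0.09, the 26 SR and hnRNP regulators a median of -0.04 with 22 below 0 (18 under TMM), and nonsense-mediated decay genes a median of -0.01. Medians this close to 0 changed sign under TMM for SF3a and SF3b and for decay genes. In the branch point and acceptor recognition list the lowest was the helicase gene DDX39B, with 59.9 CPM in R625H and 73.0 CPM in K666T (-0.28). The known acceptor genes had a median of -0.02, with ZNF548 at 0.61 (12.8 CPM in R625H and 8.38 CPM in K666T) and GAS8 at -0.29 (25.6 CPM in R625H and 31.4 CPM in K666T) at its ends. Among the 18 measured genes with a called pair higher in R625H, the median ratio was 0.00, with 9 above 0 and 9 below.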

How the data were processed

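The authors deposited raw counts of reads per gene and raw counts of uniquely mapped and multi-mapped reads per splice junction for each library, with the longest overhang of a spliced alignment in nt as a deposited value. STAR 2.5.3a and HTSeq with hg19/GRCh37 are named, per the submitters' processing notes; no source states the annotation release or the settings. Per the labels, a stranded kit was read as 100-bp pairs, so the gene counts of column 4 (the strand opposite to read 1) were used, and rows that name no gene were left out. Junction counts are column 7.

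Junctions were named, and sites called annotated, by matching GENCODE release 29 intron lengths to hg19 junctions, chromosome by chromosome (15762 of 18228 coding genes). Of 57820 gene IDs, 39538 had a symbol. Events needed 20 reads in each library. Shares have Wilson intervals, and differences the interval combined from them. The limit for a share of 0 is 3 counts over the pair's reads. Inclusion of a cassette exon takes the mean of its junctions. Members and lists were chosen with earlier results of these data known. The rule named the called pairs with reads on both acceptors in all 4 libraries (the 15 largest differences a direction), called genes of the known list and its 10 best covered, such called exons, the 10 highest and 10 lowest genes with 100 reads or more, and the 3 members of each list with the largest ratio. Other pairs, RACK1, the 2-fold genes under 100 reads and further list members were named after their values were seen. Alternatives changed the read minimum, multi-mapped reads, overhang, adjustment, scaling, prior count, filter and strand. The pair tests and gene ratios were tested on simulated data. Python 3.11.15, SciPy 1.17.1, pandas 2.3.3 and edgeR 4.0.16 were used, the last for TMM factors only. The counts give the depth of each value; replicates were not available. Some called pairs are not reported here.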

Additional observations from a re-analysis of the deposited data

How the results depend on the processing

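No paired analysis was possible because each vector has 1 library. The acceptor pairs higher and lower in R625H, 1.16 and 0.963% of those tested (496 in both directions), came to 0.816 and 0.559% with at least 50 reads (165 and 113 pairs), 2.44 and 2.23% with multi-mapped reads added (1197 in both directions, 572 of them lower), 0.509 and 0.315% with every site read in all 4 libraries and adjusted among themselves (21 and 13), and 0.146 and 0.0383% in the set with 50% of the donor's reads (19 and 5), which was added after seeing the data. Cassette exons, 57 and 41, came to 37 and 17 with at least 50 reads, 2893 and 2654 with multi-mapped reads, 1 and 0 with every junction read in all 4 libraries and 2 and 0 with inclusion junctions within 2-fold (also added after seeing the data); adjusting all classes together gave 80 lower. Genes at least 2-fold apart, 5 higher and 4 lower, came to 2 and 2 with a prior count of 50, 27 and 33 without a filter, and 2 and 1 with at least 5 CPM. Where fewer events or genes were tested, that is part of the smaller counts. The prior count of 50 left the genes tested unchanged and draws ratios of low counts toward 0. Other causes were not tested. With multi-mapped reads the difference reversed at WASH7P (0.81 points), TBC1D10B (6.94), THOP1 (7.39) and the TRIM28 pairs (-2.54 and 1.22). Of the 58 named pairs and exons, 17 kept their direction but lost the call. Among them were TOR1AIP2, HELLS, PTMA, TRIP12, DDX41, PRR13, NOC4L, SPCS2, the PLEKHM2 exon and the unnamed pairs. None of the 24 pairs of the added set lost the call. Their p-values were here adjusted over all pairs, a looser rule than the adjustment within the set that called them. Whether they keep the call under that stricter rule was not tested. With unstranded counts RPL21P75 reversed (-0.056). TMM and median-of-ratios scaling shifted the median of all genes by 0.02 and 0.01 (log2), which turns some list medians just below 0 positive but left all 33 interferon genes above 0. With a single library a vector, leaving one out is not possible.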

Other observations

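Other lists were measured and lay close to the median of all genes. The median log2 ratios of R625H over K666T were 0.06 for p53 targets, with 20 of 25 above 0 and the ferredoxin reductase gene FDXR at 0.30, and -0.05 for hypoxia and glycolysis, with 25 of 29 below 0 and VEGFA at -0.20. Immediate early genes had a median of 0.00 (0.02 under TMM), with EGR1 at -0.39, EGR3 at -0.42 and JUNB at 0.38. In the unfolded protein response list the cochaperone gene DNAJC3 had 38.2 CPM in R625H and 52.2 CPM in K666T (-0.45), with 45.8 CPM in K700E and 50.8 CPM in WT, and XBP1 had -0.19. Medians, of which those of cholesterol synthesis and the spindle checkpoint turn positive under TMM, were 0.04 for heat shock, -0.03 for serine and one-carbon metabolism, 0.00 for cholesterol synthesis, 0.00 for heme synthesis and iron, 0.00 for the spindle checkpoint and -0.03 for replication.

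Junctions of rarer motifs took similar shares of reads. GC-AG junctions held 0.938% in R625H and 0.926% in K666T, with 0.902% in WT, and AT-AC junctions, a mark of some introns of the minor spliceosome, held 0.0956% in R625H and 0.0979% in K666T, with 0.0969% in WT.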
